A study of Mus musculus with 4 samples.

Results

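The genes for translation initiation factors and translation elongation factors were described in 4 mouse mammary tumor cell lines profiled by RNA sequencing (RNA-seq). A gene belonged to the set when its symbol began with Eif or Eef followed by a digit. This rule took 64 of the 21090 genes of the table, 56 for initiation (Eif) and 8 for elongation (Eef). It reads only the symbol and no measured value, although the set was chosen with earlier results of these data known. The rule also takes genes that act on the factors, such as the kinases of eIF2 and eEF2.

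Each line gave 1 library. The 2 controls were the parental line and a line with the vector control, and the 2 knockouts were lines edited in exon 3 or in exon 2 of S100a4, which encodes a small calcium-binding protein that the study examined in metastasis. The study describes 1 starting line, from a primary sarcomatoid mammary tumor of an animal with lung metastasis. The mice carried Pik3ca H1047R and Trp53 R270H switched on by Cre under the MMTV promoter, so on that account all 4 lines share these alleles. The edited lines had been infected with lentivirus expressing Cas9 and a guide RNA and selected with puromycin. The titles give the exon 2 knockout a different cell number from the other 3 libraries, and whether that number names another starting line is not stated. Below, the 4 are called the parental, vector, exon 3 and exon 2 lines. Nothing in the labels says that the libraries of a group are repeat cultures of 1 line. The 2 members of a group were different lines, so the spread within a group holds the difference between lines.

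Protein synthesis begins when eIF2, loaded with GTP and the initiator tRNA, joins the small ribosomal subunit together with eIF1, eIF1A, eIF3 and eIF5. The cap-binding complex eIF4F brings this assembly to the 5′ end of an mRNA, and it scans to a start codon, where the large subunit joins. In elongation eEF1A delivers each charged tRNA, eEF1B recharges eEF1A with GTP, and eEF2 moves the ribosome by a codon. Signalling through PI3K and mTOR, the pathway that Pik3ca feeds, is known to act on translation through the eIF4E-binding proteins and through mRNAs that begin with a run of pyrimidines, the 5′ terminal oligopyrimidine (TOP) mRNAs, which include those of several elongation factors.

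The sequence around the RefSeq start is given for 5 members, from 20 bases before the start to 30 bases after it (GRCm38.p6, transcribed strand), to set their annotated starts beside their values. Capitals mark the longest run of C and T within the window, or the first of them where several are as long. Eef2 at chr10:81176611-81176660 (plus strand), Eef1b2 at chr1:63176811-63176860 (plus) and Eif3f at chr7:108934395-108934444 (plus) are known TOP mRNAs whose RPKM was higher in both knockouts. Eif5 at chr12:111538081-111538130 (plus) and Eif2ak2 at chr17:78882543-78882592 (minus) had the most negative changes of the set. The 5 were chosen with these values known, so a link between such runs and direction was not tested. Other TOP members, among them Eef1a1 and Eif3e, whose groups overlapped, are not shown. No window was found for Eef1d, Eef1g, Eif3e or Eif3h.
Eef2: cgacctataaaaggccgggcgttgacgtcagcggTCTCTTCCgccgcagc
Eef1b2: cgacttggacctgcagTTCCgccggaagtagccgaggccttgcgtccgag
Eif3f: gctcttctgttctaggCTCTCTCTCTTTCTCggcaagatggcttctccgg
Eif5: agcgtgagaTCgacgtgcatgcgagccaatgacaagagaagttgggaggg
Eif2ak2: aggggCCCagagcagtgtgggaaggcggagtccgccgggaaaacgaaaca
The run in Eif3f was 15 bases long and began 4 bases before the annotated start, and 1.7% of the 32851 RefSeq windows held a run as long. The run of 8 bases in Eef2 began at base 15 after the start, and 19.0% of windows held one as long. Among the 3 TOP members shown, the marked run crossed the annotated start in Eif3f alone. The runs in Eef1b2, Eif5 and Eif2ak2 were 4, 2 and 3 bases long, and 83.9%, 99.7% and 96.3% of windows held one at least as long. RefSeq windows were found for 49 of the 64 members (64 windows), and the median longest run was 5 bases in these windows and 5 in all. Annotated starts need not be the starts used in these cells.

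The deposited unit was RPKM (reads per kilobase of gene and per unit of library total), which is already scaled to gene length and so can be compared between genes. The total behind the RPKM of a library lay between 22472024 and 31235456, with the controls above the knockouts, and genes above 0 numbered 13469 to 14214. S100a4, the edited gene, stood at 3576 RPKM (parental) and 4741 (vector), against 1136 in the exon 3 and 1105 in the exon 2 line. The labels call all 4 lines mammary tumor cells. Of 7 epithelial markers, Krt8 and Krt18 were found, while Epcam, Cdh1, Krt5, Krt14 and Krt19 were each below 1 RPKM in all 4 libraries. The 7 summed to 130 (parental), 34.4 (vector), 107 (exon 3) and 74.9 (exon 2). All 6 mesenchymal markers were detected, and their summed RPKM was 8107 and 7147 in the controls and 3278 and 3434 in the knockouts. Without the edited S100a4 the other 5 summed to 4531 (parental), 2406 (vector), 2142 (exon 3) and 2329 (exon 2), so in this sum the vector line lay near the knockouts. Vim, the largest part, was higher in the vector line (2060) than in the exon 3 (1362) and exon 2 (1721) lines. Fn1, Col1a1 and Col1a2 were lower in the vector line than in both knockouts, and for Cdh2 the vector line lay between them. Summed leukocyte markers were 4.92 and 3.38 in the controls and 11.5 and 13.2 in the knockouts, nearly all of it Cd68, with Cd3e at 0 in all 4 libraries and Ptprc and Itgam at most 0.0123. The part that these marker levels play in the results was not tested.

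All 8 elongation factor genes were examined first. Together they summed to 4697 RPKM (parental), 4631 (vector), 6749 (exon 3) and 6091 (exon 2). This was 0.981% and 0.865% of all RPKM in the controls and 1.18% and 1.13% in the knockouts, so both knockouts lay above both controls. In bulk RNA a larger share of cells with a transcript cannot be told apart from more transcript per cell. Of the 8 genes, 7 had a mean RPKM of at least 1 and entered the test, limma on log2(RPKM + 1) over 10871 genes. None of the 7 passed the adjusted p threshold of 0.05 in limma, where 2 of the 10871 genes (0.0184%) did, and voom on the reads recovered from the RPKM values passed 0 of the 7 as well. At an unadjusted p under 0.05 in limma, 4 of the 7 were higher in the knockouts and 0 were lower. Of all 10871 tested genes, 578 were higher and 1498 lower, 19.1% in either direction. Both knockouts lay above both controls in 5 of the 7 genes, beside 21.9% of all tested genes, and below both in 0, beside 31.2%. The median log2 change was 0.77 for the 7 genes and -0.08 for all tested genes.

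Eef2k, the kinase that inhibits eEF2, had the largest change among the elongation genes (chromosome 7 from 120842831 to 120907450, GRCm38, plus strand). Its RPKM was 11.5 for parental cells (95% Wilson interval 10.7 to 12.3, 780 reads) and 10.6 for the vector line (9.78 to 11.5, 586 reads). Values were higher at 35.0 for exon 3 (33.4 to 36.6, 1785 reads) and 24.5 for exon 2 (23.2 to 25.9, 1198 reads). Both knockouts stood clear of both controls, and the controls were close to each other. The log2 change was 1.33 (SE 0.322, limma adjusted p 0.105), and the mean went from 11.04 ± 0.617 (SD, n = 2) to 29.7 ± 7.39 (SD, n = 2), 2.69-fold higher. Eef2k was at least 2-fold higher in all 4 pairs of a knockout with a control, which held for 0.267% of all tested genes. With 1 line left out, its limma adjusted p was 0.0481 (without vector), 0.0192 (without parental), 0.553 (without exon 3) and 0.190 (without exon 2).

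Eef2, the translocase that Eef2k phosphorylates, was among the most abundant members (chromosome 10 from 81176631 to 81182498, plus strand). Its RPKM was 1368 (parental), 1439.9 (vector), 2619 (exon 3) and 2194 (exon 2). The knockouts did not overlap the controls, and the group means were 1404 ± 51.1 (controls, SD, n = 2) and 2407 ± 300 (knockouts, SD, n = 2). The log2 change was 0.77 (SE 0.303, limma adjusted p 0.210). Within a library, Eef2k stood at 0.00840 and 0.00737 of the RPKM of Eef2 in the controls and at 0.0134 and 0.0112 in the knockouts.

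The 3 subunits of eEF1B, the exchange factor of eEF1A, all had both knockouts above both controls (all genes 21.9%). Eef1g, the structural subunit, had 27.9 RPKM (parental), 37.4 (vector), 77.1 (exon 3) and 69.0 (exon 2). Its log2 change was 1.15 (SE 0.306, limma adjusted p 0.127). With 1 line left out, its limma adjusted p was 0.0106 (without vector), 0.0917 (without parental), 0.580 (without exon 3) and 0.234 (without exon 2). Of the 75-base stretches of its coding sequence, 79.4% also occur in another gene, nearly all in a processed pseudogene, so its level is uncertain. Eef1d, a catalytic subunit, had 85.5, 98.6, 164 and 158 RPKM in the same order, and its log2 change was 0.80 (SE 0.289, limma adjusted p 0.188). Eef1b2, the other catalytic subunit, was far more abundant, with 1049 RPKM (parental), 1115 (vector), 1759 (exon 3) and 1336 (exon 2). Its log2 change was 0.50 (SE 0.307, limma adjusted p 0.383), or 0.78 with coding GC content and length corrected as described below. The exon 3 line was the high library, and without it the change was 0.31 (limma adjusted p 0.877).

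The remaining 3 elongation genes did not separate the groups. Eef1a1, which encodes the tRNA carrier eEF1A, had 2091 RPKM (parental), 1866 (vector), 2039 (exon 3) and 2228 (exon 2). The parental line thus exceeded the exon 3 line, and the log2 change was 0.11 (SE 0.302, limma adjusted p 0.865), or 0.35 corrected, with 51.9% of its coding stretches shared with other genes. Eef2 therefore stood at 0.654 and 0.772 of the RPKM of Eef1a1 in the controls and at 1.28 and 0.985 in the knockouts, a ratio chosen after the values were seen. Eef1e1, whose product belongs to the multi-tRNA synthetase complex, had 64.2 and 64.1 RPKM in the controls, 55.9 in the exon 3 line and 80.2 in the exon 2 line. Eef1a2, the form of eEF1A found in muscle and neurons, was listed at 0 in 3 libraries and had 1 read (0.0306 RPKM) in the exon 3 line. The limit of 3 reads for its parental library was 0.0690 RPKM.

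**Figure D1:**
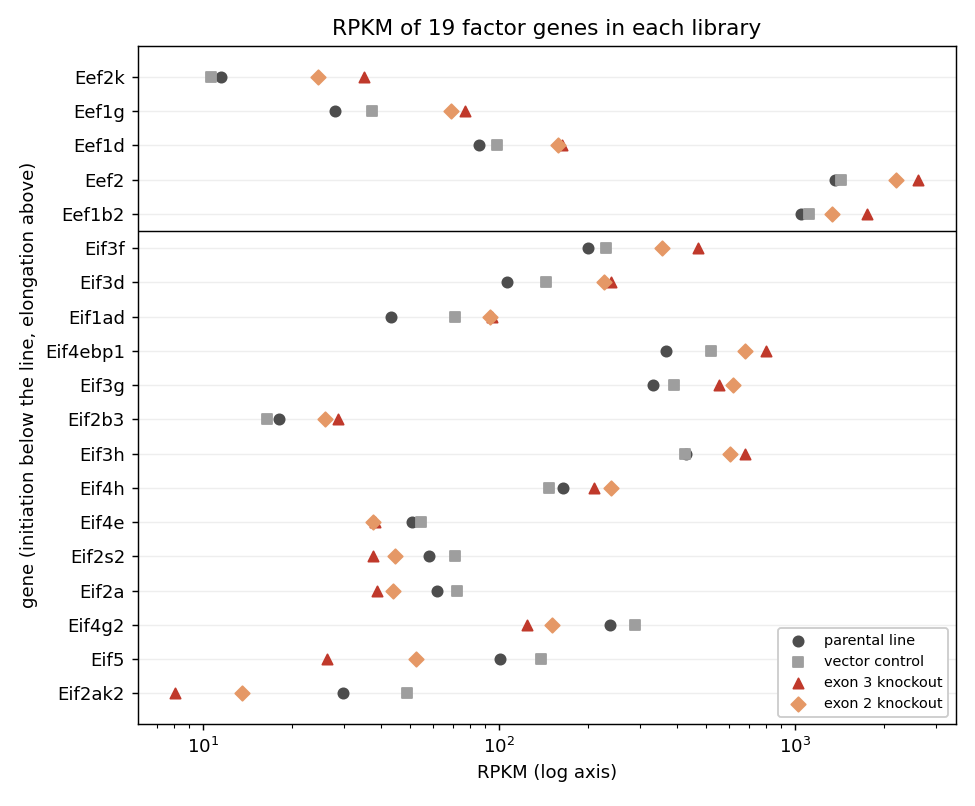
RPKM (x axis, log scale) of the 14 initiation and 5 elongation factor genes with the largest difference in their smallest knockout and control pair, 1 row per gene and 1 point per library. In every row both knockouts lie on 1 side of both controls, which the choice of these genes requires. Eef2k runs from 10.6 to 35.0 and Eif2ak2 from 8.04 to 49.0.

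The 56 initiation factor genes had values in both directions. They summed to 5377 RPKM (parental), 6699 (vector), 7572 (exon 3) and 7530.4 (exon 2), which was 1.12%, 1.25%, 1.33% and 1.396% of all RPKM. Of the 56, 52 were tested. Eif2s3y, which lies on chromosome Y, Eif4e1b and Eif1-ps were listed at 0 in all 4 libraries, and Eif3j1 had at most 1.02 RPKM. In limma 0 of the 52 passed the adjusted p threshold, as with voom, and at an unadjusted p under 0.05 there were 5 higher and 6 lower. At that unadjusted p, 578 of all 10871 tested genes were higher and 1498 lower, 19.1% in either direction. Both knockouts were above both controls in 19 (all genes 21.9%) and below both in 15 (all genes 31.2%), and the groups overlapped in 18. The median log2 change was 0.20, from -1.77 to 0.93, and 30 of the 52 values were positive, beside 4897 of all 10871 tested genes. Without the parental line the median was -0.0551 (all genes -0.13), so the sign of the median rests on that library.

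The lines within a group were compared to show the spread against which these values stand. The vector line lay above the parental line in 40 of the 52 tested initiation genes, beside 6888 of all 10871 tested genes. The median log2 difference was 0.29 for the initiation genes (all genes 0.16), larger than their median change between the groups. The 2 controls were at least 2-fold apart in 0 of the 52 initiation genes and 0 of the 7 elongation genes, beside 8.53% of all tested genes. The 2 knockouts were at least 2-fold apart in Eif4ebp3, Eif4e3 and Eif4g3 among the 52 and in 0 of the 7, beside 4.99% of all tested genes. For the elongation genes the median difference was 0.07 between the controls and -0.16 from the exon 3 line to the exon 2 line, both smaller in size than their median change of 0.77.

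**Figure D2:**
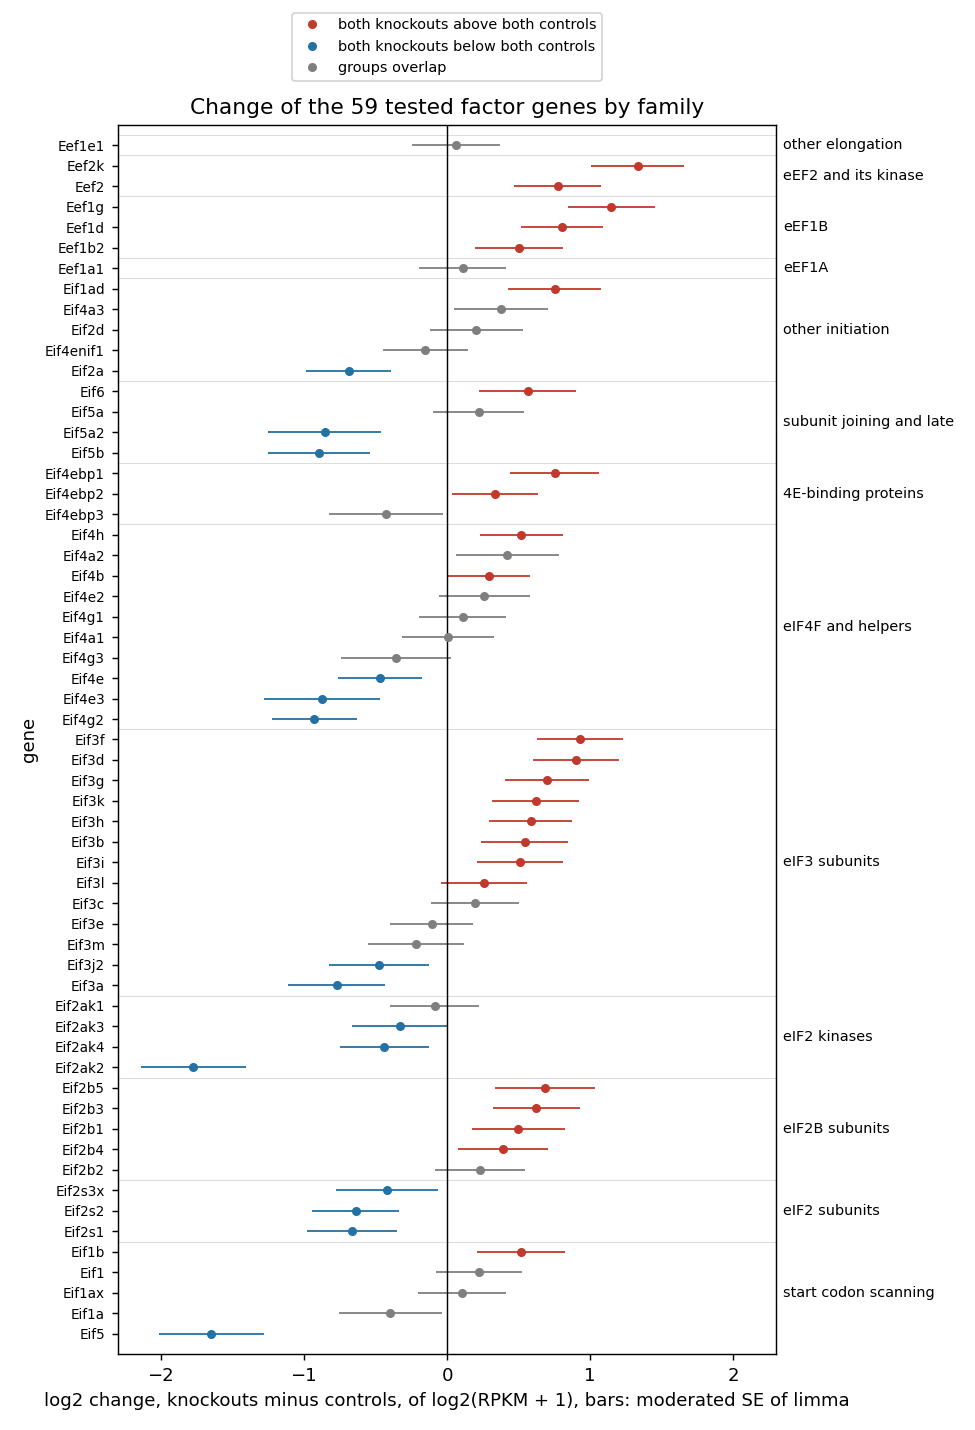
Log2 change (x axis, knockouts minus controls, log2(RPKM + 1)) of the 59 tested factor genes, 1 row each, grouped by family, with bars for the moderated SE of limma. Red marks genes with both knockouts above both controls, blue those with both below, and grey those whose groups overlap. The elongation genes lie at or above 0.06, and the initiation genes spread from -1.77 to 0.93.

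GC content differed between the genes that were higher and lower. The median GC content of the coding sequence was 54.0% in the 19 initiation genes that were higher, 44.4% in the 15 that were lower and 50.3% in the 18 whose groups overlapped. Across the 59 tested members, which share the same 4 libraries, Pearson's r between GC content and log2 change was 0.636, and across the 10779 tested genes with a coding sequence it was 0.457. When each library was corrected for coding GC content and coding length over all genes, r was 0.261 for the members. The correction placed both knockouts above both controls in 30 of the 52 initiation genes and below both in 5, and the median became 0.31 (all genes 0.05). Such counts were not made over all genes under the correction. Positive changes after it numbered 37 of the 52 initiation genes, beside 5815 of the 10779 genes. For the 7 elongation genes the median log2 change was 0.77 before and after the correction. Where the correction moved the printed log2 change of a gene by over 1.5 times or turned its sign, the corrected value stands beside it. Whether GC content explains any of these changes was not tested.

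**Figure D3:**
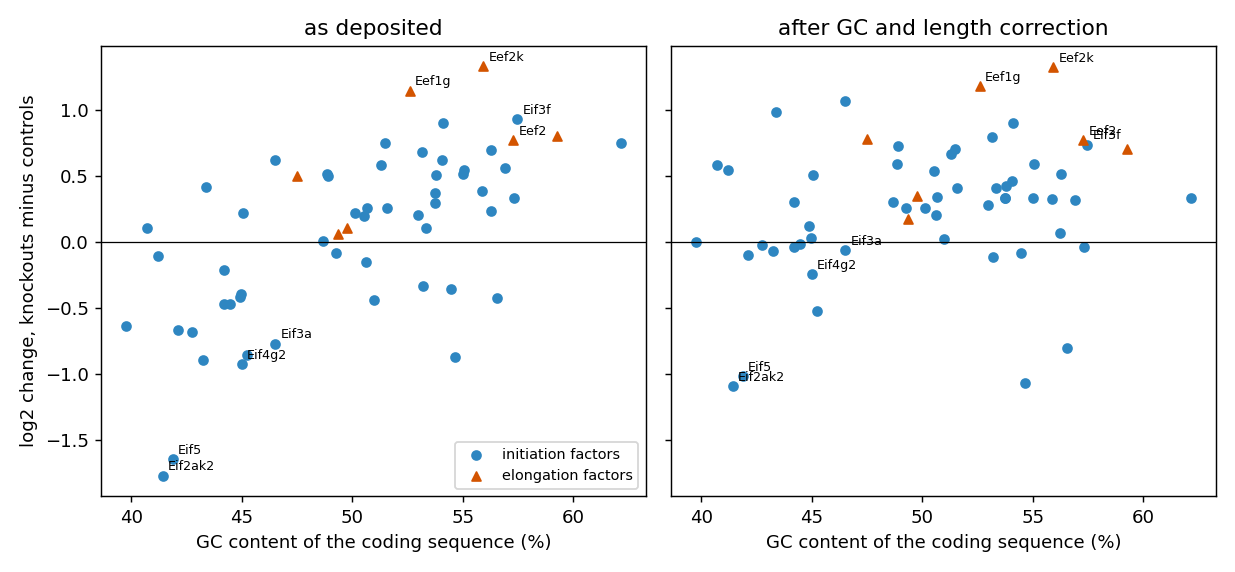
GC content of the coding sequence (x axis, %) against the log2 change from controls to knockouts (y axis) of the tested members, as deposited on the left and after the GC and length correction on the right. Circles are initiation genes and triangles elongation genes. Eif2ak2 moves from -1.77 to -1.09 and Eif4g2 from -0.93 to -0.24, while Eef2k stays at 1.33.

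The scanning and start codon factors held the second most negative change of the set. Eif5 encodes the protein that makes eIF2 hydrolyse its GTP at the start codon (chromosome 12 from 111538016 to 111546752, plus strand). Its RPKM was 101 for parental cells (95% Wilson interval 98.1 to 104, 4074 reads) and 139 for the vector line (135 to 143, 4553 reads). Values were lower at 26.2 for exon 3 (24.4 to 28.1, 793 reads) and 52.7 for exon 2 (50.1 to 55.4, 1527 reads). Both knockouts were below both controls, with the exon 3 line the lower, and the control mean was 3.04 times the knockout mean. The log2 change was -1.65 (SE 0.368, limma adjusted p 0.101), and -1.02 after the correction. With 1 line left out, its limma adjusted p was 3.4e-05 (without parental), 0.00650 (without vector), 0.570 (without exon 3) and 0.190 (without exon 2). With all 4 libraries it was 0.0143 under a robust prior and 0.307 after the GC and length correction.

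The other 4 scanning genes were closer to 0. Eif1, the gatekeeper of start codon choice, had 39.0, 47.4, 54.4 and 46.6 RPKM in the parental line, the vector line and the exon 3 and exon 2 lines, and 80.6% of its coding stretches are shared with other genes. Its close relative Eif1b, with 29.1, 36.5, 51.8 and 42.8 RPKM, was the only 1 of the 5 with both knockouts above both controls (log2 change 0.52, limma adjusted p 0.370). Eif1ax, which encodes eIF1A, had 100.02, 145, 136 and 124 RPKM. Eif1a, a second gene for that factor, had 42.0, 62.8, 29.1 and 51.8 RPKM. The groups overlapped in Eif1, Eif1ax and Eif1a.

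The eIF2 complex and its exchange factor eIF2B lay on opposite sides as deposited. Eif2s1, the subunit whose phosphorylation slows initiation, had 92.3 and 116 RPKM in the controls and 54.2 and 77.2 in the exon 3 and exon 2 lines. Eif2s2, the beta subunit, had 58.0 and 71.3 in the controls and 37.6 and 44.7 in the knockouts, and Eif2s3x, the gamma subunit, had 3.57 and 4.27 against 2.37 and 3.01. All 3 tested subunits were lower in both knockouts than in both controls (all genes 31.2%). Their median log2 change was -0.64, with adjusted p-values in limma from 0.274 to 0.537. With GC and length corrected, the median was 0.001, and Eif2s2, at -0.64 before, stood at 0.001. Shared stretches made up 59.9% of the coding sequence of Eif2s2 and 94.9% of that of Eif2s3x.

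The 5 genes for eIF2B, which reloads eIF2 with GTP, all had positive changes, beside 4897 of all 10871 tested genes. Both knockouts were above both controls in 4 of the 5 (all genes 21.9%). Eif2b3 had 18.1 RPKM (parental), 16.5 (vector), 28.5 (exon 3) and 25.9 (exon 2). Its log2 change was 0.62 (SE 0.304, limma adjusted p 0.288), and 1.07 after the correction. Eif2b5, the catalytic subunit, had 24.2, 44.8, 57.5 and 49.8 RPKM, so the vector line lay near the knockouts. The log2 changes of Eif2b1, Eif2b2 and Eif2b4 were 0.50, 0.23 (0.06 corrected) and 0.39. The median of the 5 was 0.50 as deposited and 0.73 after the correction, and 0.20 without the parental line (all genes -0.13).

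Among the 4 kinases that phosphorylate eIF2, Eif2ak2 had the most negative change of all 59 tested members. It encodes PKR, the kinase switched on by double-stranded RNA and induced by interferon (chromosome 17 from 78852564 to 78882573, minus strand). Its RPKM was 29.8 for parental cells (95% Wilson interval 28.3 to 31.3, 1478 reads) and 49.0 for the vector line (46.8 to 51.2, 1977 reads). Values were lower at 8.04 for exon 3 (7.2 to 9.0, 300 reads) and 13.6 for exon 2 (12.4 to 14.8, 485 reads). The groups stood apart, and each also held a difference, the vector line and the exon 2 line being the higher. The log2 change was -1.77 (SE 0.366, limma adjusted p 0.0957), and -1.09 after the correction (limma adjusted p 0.291). It was the only initiation gene at least 2-fold lower in all 4 pairs, which held for 1.73% of all tested genes. Its adjusted p in limma was 0.0487 when genes under a mean RPKM of 5 were left out and 0.00782 with a robust prior. With 1 line left out it was 5.81e-05 (without parental), 0.0362 (without vector), 0.437 (without exon 3) and 0.190 (without exon 2).

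The other kinases were closer to 0. Eif2ak4 (GCN2, which senses uncharged tRNA) had 18.4 and 16.2 RPKM in the controls and 11.9 and 13.1 in the knockouts, a log2 change of -0.44 that was 0.02 after the correction. Eif2ak3 (PERK, of the endoplasmic reticulum) had 10.7 and 7.98 in the controls and 7.07 and 7.28 in the knockouts. Eif2ak1 (HRI, which senses heme) had 21.1 and 23.97 in the controls and 18.9 and 23.6 in the knockouts, so its groups overlapped.

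The genes of eIF3, the large scaffold on the small subunit, did not share a direction. Of 13 tested, 8 had both knockouts above both controls (all genes 21.9%) and 2 had both below (all genes 31.2%). The median log2 change of the 13 was 0.51, or 0.31 without the parental line (all genes -0.13). Eif3f had 199.8 RPKM (parental), 231 (vector), 471 (exon 3) and 357 (exon 2). Its mean went from 215 ± 21.8 (SD, n = 2) to 414 ± 80.3 (SD, n = 2), a log2 change of 0.93 (SE 0.301, limma adjusted p 0.162). With 1 line left out, its limma adjusted p was 0.0449 (without vector), 0.102 (without parental), 0.691 (without exon 3) and 0.289 (without exon 2). Eif3d, a subunit that can bind the cap, had 107, 145, 239.7 and 228 RPKM, and its log2 change was 0.90 (SE 0.300, limma adjusted p 0.169). The change of Eif3d was 1.12 without the vector line (limma adjusted p 0.0261) and 0.69 without the parental line (0.205), and its limma adjusted p was 0.649 and 0.365 without the exon 3 or the exon 2 line. An antisense gene covers 12.3% of the coding stretches of Eif3d. Eif3g had 333, 390.1, 555 and 617 RPKM and Eif3h had 429.6, 425, 679 and 606, with log2 changes of 0.70 and 0.58. Eif3b, Eif3i and Eif3k had changes from 0.51 to 0.62, and Eif3l a change of 0.26 (0.41 corrected).

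Eif3a, the largest subunit of the core, was lower in both knockouts as deposited. Its RPKM was 87.6 and 125 in the controls, 48.2 in the exon 3 line and 76.8 in the exon 2 line, and its log2 change was -0.77 (SE 0.337, limma adjusted p 0.247). After the correction the value was -0.06. The other gene with both knockouts below both controls was Eif3j2, which shares 98.9% of its coding stretches with Eif3j1, so reads of the pair may be split. Eif3c, Eif3e and Eif3m overlapped between the groups. After the correction 10 of the 13 genes had both knockouts above both controls and 0 had both below, with a median of 0.51 again. Quantile normalization gave 7 above and 2 below, with a median of 0.30. Under neither setting were such counts made over all genes.

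**Figure D4:**
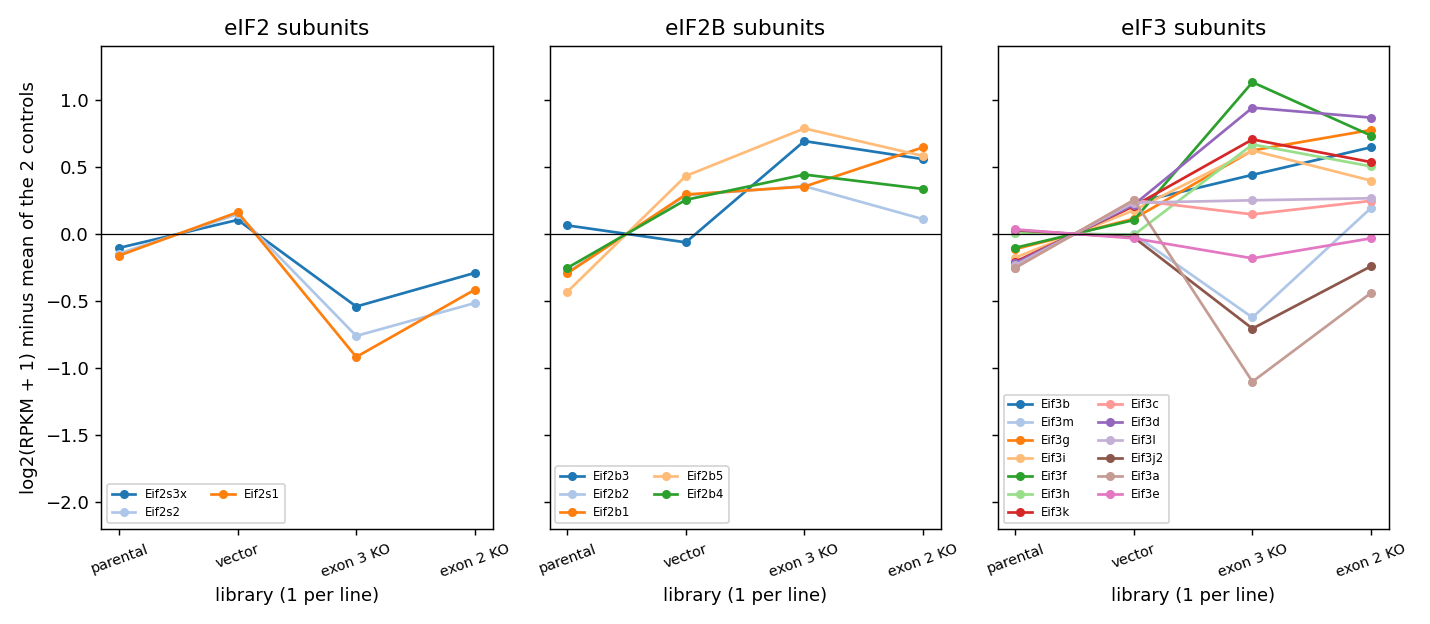
Level of each tested subunit gene of eIF2, eIF2B and eIF3 in the 4 libraries (x axis), as log2(RPKM + 1) minus the mean of the 2 controls (y axis), 1 line per gene. The eIF2 genes lie below 0 in both knockouts, the eIF2B genes above 0, and the eIF3 genes on both sides, with Eif3f highest and Eif3a lowest in the exon 3 line.

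The genes of eIF4F and its helpers lay in both directions as well, with 2 of 10 above in both knockouts (all genes 21.9%), 3 below (all genes 31.2%) and 5 overlapping. After the GC and length correction 6 were above and 2 below, a count not made over all genes. Eif4e, the cap-binding protein, had 51.0 RPKM (parental), 54.5 (vector), 38.1 (exon 3) and 37.6 (exon 2). Its log2 change was -0.47 (SE 0.293, limma adjusted p 0.393) and -0.03 after the correction, and 32.6% of its coding stretches are shared with other genes. Eif4g2 encodes DAP5, a relative of the scaffold eIF4G that does not bind eIF4E (chromosome 7 from 111067750 to 111083030, minus strand). It had 237 RPKM (parental), 289 (vector), 124 (exon 3) and 152 (exon 2). Its log2 change was -0.93 (SE 0.298, limma adjusted p 0.160), and -0.24 after the correction. With 1 line left out, its limma adjusted p was 0.0279 (without parental), 0.164 (without vector), 0.676 (without exon 3) and 0.307 (without exon 2). Eif4h, a helper of the helicase eIF4A, had 164 and 148 RPKM in the controls and 209 and 239 in the knockouts, and Eif4b, another helper, had 382 and 354 in the controls and 439 and 464 in the knockouts. Their log2 changes were 0.52 (0.34 corrected) and 0.29.

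The remaining genes of this complex did not hold a shared direction. The scaffold Eif4g1 had 132, 143, 126 and 174 RPKM in the parental line, the vector line and the exon 3 and exon 2 lines, and Eif4g3 had 9.25, 9.44, 10.4 and 4.72. The helicase Eif4a1 had 8.08, 9.13, 8.76 and 8.53 RPKM, but 93.2% of its coding stretches are shared with other genes, and Eif4a2 had 106, 76.5, 88.1 and 166. Among the relatives of Eif4e, Eif4e2 had 46.4, 62.6, 75.8 and 55.2 RPKM and Eif4e3 had 5.95, 7.13, 1.84 and 4.92. Of these 6 genes, Eif4e3 alone had groups that did not overlap, with a log2 change of -0.87 (SE 0.408, limma adjusted p 0.271) and -1.07 after the correction. It had 27 reads in the exon 3 line and 69 in the exon 2 line, and 38.7% of its coding stretches are shared with another gene. Eif4a3, a helicase of the exon junction complex, had 35.3 and 57.8 RPKM in the controls and 63.6 and 54.5 in the knockouts.

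The eIF4E-binding proteins hold eIF4E until mTOR phosphorylates them. Eif4ebp1 had 366 RPKM (parental), 521 (vector), 797 (exon 3) and 681 (exon 2). Its group means were 444 ± 110 (controls, SD, n = 2) and 739 ± 82.2 (knockouts, SD, n = 2), and its log2 change was 0.75 (SE 0.311, limma adjusted p 0.229) and 0.33 after the correction. Eif4ebp2 had 32.1 and 27.3 RPKM in the controls and 34.9 and 40.6 in the knockouts, a log2 change of 0.33 that was -0.04 after the correction. Eif4ebp3 had 16.9 and 28.8 in the controls and 11.1 and 23.4 in the knockouts, and 56.9% of its coding stretches are shared with another gene. Within a library, the RPKM of Eif4ebp1 was 7.18 and 9.56 times that of Eif4e in the controls and 20.9 and 18.1 times in the knockouts, a ratio chosen after the values were seen. It was taken from the values as deposited and was not computed after the correction. Coding GC content was 62.1% for Eif4ebp1 and 44.2% for Eif4e, whose log2 change went from -0.47 to -0.03 after the correction. Of the coding stretches of Eif4e, 32.6% are shared with another gene. The ratio compares transcripts and says nothing of phosphorylation or protein.

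The 4 late factors and the rest completed the set. Eif5b, the GTPase that joins the subunits, had 27.8 and 33.2 RPKM in the controls and 11.4 and 21.8 in the knockouts, with a log2 change of -0.90 (SE 0.357, limma adjusted p 0.216) that was -0.07 after the correction. Eif5a, the factor that carries hypusine and helps ribosomes through slow codons, had 420.4 and 651 RPKM in the controls and 622 and 598 in the knockouts. Its relative Eif5a2 had 3.57 and 6.37 in the controls and 1.65 and 2.88 in the knockouts. Eif6, which keeps the large subunit free, had 109.8 RPKM (parental), 201 (vector), 232 (exon 3) and 208 (exon 2), so the parental line was the low library. Eif2a, an alternative carrier of initiator tRNA, had 61.9 and 72.4 in the controls and 38.7 and 43.9 in the knockouts, and its log2 change of -0.69 (limma adjusted p 0.244) was -0.02 after the correction. Eif1ad had 43.2 and 71.1 in the controls and 94.9 and 93.3 in the knockouts, with a log2 change of 0.75 (SE 0.324, limma adjusted p 0.243). The change of Eif1ad was 1.10 without the vector line (limma adjusted p 0.0430) and 0.40 without the parental line (0.545), and its limma adjusted p was 0.689 and 0.459 without the exon 3 or the exon 2 line. Eif2d and Eif4enif1 overlapped between the groups.

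The members known as TOP mRNAs were then set together. Of 9 (Eef1a1, Eef1b2, Eef1d, Eef1g, Eef2, Eif3e, Eif3f, Eif3h and Eif4b), 7 had both knockouts above both controls (all genes 21.9%), 0 had both below (all genes 31.2%), and Eef1a1 and Eif3e overlapped. The median log2 change was 0.58 as deposited, 0.70 after the GC and length correction and 0.34 after quantile normalization, in which 6 were above and 1 below. The shares of all genes given here hold for the values as deposited. The list overlaps the elongation genes in 5 of its 9 members, and no member passed the adjusted threshold in limma.

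Other genes of translation gave the setting. Of 39 listed, 37 were in the table and 36 were tested, and 0 passed the adjusted threshold in limma. At an unadjusted p under 0.05 in limma there were 1 higher and 5 lower, beside 578 higher and 1498 lower of all 10871 tested genes (19.1%). Both knockouts were above both controls in 9 (all genes 21.9%) and below in 10 (all genes 31.2%), shares near those of all genes. The median log2 change was 0.03, or -0.11 without the parental line (all genes -0.13). After the correction the median was 0.24, with 14 above and 5 below, counts not made over all genes. The 1 higher gene was Ppp1r15a, which directs a phosphatase to eIF2, with 20.2 and 39.6 RPKM in the controls and 70.9 and 52.7 in the knockouts (log2 change 1.08, SE 0.364, limma adjusted p 0.172). Among the 5 lower, Ddx3x, a helicase of scanning, had 161 and 192 in the controls and 56.0 and 105 in the knockouts, with a log2 change of -1.19 (SE 0.347, limma adjusted p 0.138) that was -0.64 after the correction. Rps6kb1, the S6 kinase under mTOR, had 19.3 and 25.0 against 8.37 and 10.1, and Abce1, which recycles ribosomes, had 52.0 and 71.8 against 26.9 and 30.9. The remaining 2 were Bzw1 and Mtif2. Atf4, the transcription factor whose mRNA is translated when eIF2 is phosphorylated, had 795 and 846 RPKM in the controls and 1136 and 915 in the knockouts (log2 change 0.31, limma adjusted p 0.581). Mtor had 23.1 and 10.8 in the controls and 20.8 and 28.3 in the knockouts, so its groups overlapped.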

How the data were processed

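Total RNA was prepared with an RNeasy kit and a TruSeq stranded total RNA kit, per the labels. The authors deposited 1 table of RPKM with 1 column per library. The submitters' processing notes name GSNAP, CASAVA 1.8 and GRCm38. The gene model, the counting rule and the use of strand are not given in the sources used here. All 4 columns were matched to a library by title, and 0 columns were left out. Groups came from the titles. The labels give no replicate numbers, so replicates were numbered by accession (control 1 the vector control, control 2 the parental line, knockout 1 exon 3, knockout 2 exon 2) and pair nothing.

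Values were taken as log2(RPKM + 1), so changes of low genes are understated. Genes with mean RPKM of at least 1 (10871) were tested with limma 3.58.1 (R 4.3.3), with an intensity trend, 2 knockouts against 2 controls, no covariate and Benjamini-Hochberg adjustment at 0.05. The study names no test for these libraries. SE is the moderated standard error, and p-values measure only the spread between these 4 libraries. An exact permutation of 2 against 2 libraries cannot give a p under 0.333 (two-sided). The members and gene lists were chosen with earlier results of these data known. The genes named were, among members with 1 sign in all 4 pairs, the 14 initiation and 5 elongation genes with the largest smallest pair difference, plus families fixed by name. Eif2b5, Eif3a, Eif3b, Eif3c, Eif3e, Eif3i to Eif3m, Eif4b, Eif5b, Eif2d, Eif4enif1 and the other genes of translation stand outside that rule and were named after their values were seen.

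Whole reads were recovered from the steps of the RPKM values (tolerance 0.0001 reads, 100% of genes), with lengths equal to the union of coding exons for 33 members. Wilson intervals (95%) and limits of 3 reads cover counting error only. GENCODE M21 (GRCm38) gave positions, coding GC content and length for 63 of 64 members, and 75-base windows of coding sequence were searched in all transcripts. RefSeq (GRCm38.p6) gave the start windows. Alternatives were a pseudocount of 0.1, median ratio scaling, quantile normalization, every gene tested or those with a mean RPKM of 5 or more, no trend, a robust prior, voom on the recovered reads, a GC and length correction, and leaving out each library. Other steps used Python 3.11.15, numpy 2.4.6, pandas 2.3.3, scipy 1.17.1 and matplotlib 3.10.9.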

Additional observations from a re-analysis of the deposited data

Results flagged for a closer look

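In 5 of the 59 tested members (8.47%) the exon 3 and exon 2 knockouts lay on opposite sides of both controls, as in 857 of all 10871 tested genes (7.88%). The log2 ratio of the exon 3 over the exon 2 knockout was 0.6352 for Eif2d, a factor for unusual initiation, and 1.0018 for the scaffold gene Eif4g3, where the exon 3 knockout was the higher. It was -0.8156 for the eIF3 subunit gene Eif3m, -0.455 for the scaffold gene Eif4g1 and -0.5126 for Eef1e1, where the exon 2 knockout was the higher. Each knockout is 1 library, so the difference between the 2 was not tested.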

How the results depend on the processing

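Of the 10871 genes, 2 passed the adjusted threshold in limma. The count was 1 with a pseudocount of 0.1, 0 after median ratio scaling, 1 after quantile normalization, 0 with no filter, 32 (7 higher, 25 lower) with the filter at mean RPKM of 5, 285 (43 higher, 242 lower) with a robust prior, 0 with voom on recovered reads and 0 after the GC and length correction. Leaving out 1 library gave 3 to 788, with 788 without the parental line and 451 without the vector control. Among initiation genes, 0 passed in the main test, 1 with the filter at 5 (Eif2ak2) and 2 with a robust prior (Eif2ak2 and Eif5). Leaving out 1 library gave 0 to 5, with 3 without the parental line and 5 without the vector control. Among elongation genes, 0 passed in the main test and 2 with a robust prior (Eef2k and Eef1g), and leaving out 1 library gave 0 to 2, with 1 without the parental line and 2 without the vector control. A lone library left in a group was assumed to vary like the other group. With voom, 10 initiation and 4 elongation genes had an unadjusted p under 0.05, among 2042 of all genes in that fit.

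The median log2 change of initiation genes was 0.20, 0.0146 after quantile normalization and -0.0551 to 0.23 when 1 library was left out. That of elongation genes was 0.77, 0.5632 after quantile normalization, 0.6378 with no filter, which adds Eef1a2, and 0.6446 to 0.83 when 1 library was left out. Quantile normalization moved the median of all genes by 0.12 and the GC and length correction by 0.12, so under quantile normalization the initiation median stood at 0.0146 beside 0.04 for all genes. The number of initiation genes with both knockouts above both controls was 24 after median ratio scaling (14 below) and 17 after quantile normalization (11 below). These counts were not made over all genes. Over the 19 genes named by size and 13 alternatives, 16 of 247 values passed the threshold and 1 changed sign, Eif2s2 at 0.001 after the GC and length correction. None of the 19 had passed it with all libraries in the test as designed, so no call could be lost, and the other 230 kept their sign but not always their size (Eif2a went from -0.69 to -0.02 and Eif4e from -0.47 to -0.03 after that correction). The cause was not tested. No paired analysis was possible, because each library was a different line and the labels match no control to a knockout. Counting limits Eef1a2, with 1 read, and Eif3j1, under a mean RPKM of 1. Eif2s3y, on chromosome Y, Eif4e1b and Eif1-ps were listed at 0, and whether they are absent or only uncounted was not tested.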
